A study of Glycine max with 2 samples.

Results

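The genes described here encode 4 ferritins, 2 NEET proteins, an iron superoxide dismutase and a YSL1-like transporter of soybean (Glycine max), 8 genes of the 3358 that the deposited tables list. They were chosen by name from the symbols and descriptions in those tables, with their values in the same comparison already known, so the values are given as a description and no test of them is made. The YSL1-like gene is a transporter of metal complexes and not an iron-binding protein like the others. Leaf RNA came from soybean of 2 kinds, one senescing early and one late, kept in a greenhouse under normal conditions and sampled 50 and 95 days after sowing. The sources used here name no cultivar, allele or applied agent and do not say how many plants went into a library. Each age has 1 table by the authors comparing 2 libraries, A and B. No label or header says which of them is the early type, or that A is the same type at both ages. With 1 library per type and age, no difference below has a replicate check.

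Iron in leaves sits mostly in plastids, where photosynthesis and iron-sulphur cluster assembly use it. Free iron drives the formation of damaging oxygen radicals, and ferritin, a hollow protein shell of the plastid in plants, stores it in a safe form. NEET proteins carry a 2-iron, 2-sulphur cluster that they can pass on. In Arabidopsis, plants with little NEET protein senesce early. Iron superoxide dismutase removes superoxide with an iron atom at its active site. YSL1 in Arabidopsis carries iron bound to nicotianamine and takes part in moving metals out of ageing leaves to seeds.

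The tables give isoforms rather than genes, and only those whose p before adjustment was below 0.05 in the authors' deposited table. They held 2413 transcripts at 50 days and 2471 at 95 days, the latter being 4.12% of about 59959 transcripts tested, a total computed from the ratio of adjusted to unadjusted p. Being listed took a large ratio, the smallest absolute log2 ratio at 95 days being 3.57 and the median 7.72. A gene that is not listed may have had any level, and the gene's total over its unlisted isoforms is not known. Depth of the libraries is unknown for the same reason. Values are normalised reads, the deposited value minus the 1 that the authors added. Folds carry a 95% Clopper-Pearson (exact binomial) interval on the reads, or, where 1 library had no read, a lower bound against 3 reads. These intervals and bounds cover counting error only. The leaf label cannot be checked here, since RNA of any tissue at a like level in both libraries would not be listed. Of transcripts whose names match photosynthesis words, 2 were listed at 95 days and 5 at 50 days. No leghaemoglobin was listed at either age. Words for nodule and root matched 3 transcripts at 50 days, 1 in A and 2 in B, and 1 at 95 days, in A, and words for phloem and xylem matched 1 at each age, both in B. Photosystem I chlorophyll-binding protein Glyma.19G261400.1 stood at 1390 normalised reads in A against 27.2 in B at 50 days, but at 33.6 against 1061 at 95 days. The other photosynthesis transcript at 95 days, Rubisco activase Glyma.03G068100.1, lay in A with 77.2 against no read, and at 50 days 4 of the 5 lay in A and 1 in B. The part of these transcripts, or of leaf composition, in the results below was not tested, and less RNA per cell and fewer cells of a type cannot be told apart in such bulk samples.

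At 95 days all 5 listed ferritin isoforms, of 4 genes, and both NEET transcripts had more reads in A, and the iron superoxide dismutase had more in B. In total 8 of 9 listed isoforms of the 8 genes lay in A, where 46.7% of all transcripts listed at that age lay. Their median log2 ratio of B over A was -4.44, against 4.52 over all listed transcripts. No absolute log2 ratio below 3.57 was listed, so the sign of such a median only restates which side held more transcripts. The word called is used where the authors' deposited adjusted p lay below 0.05 together with a log2 ratio of 1 or more in size. By this rule 1 of the 9 was called, where 1.5% of all listed transcripts were called (0.769% called and higher in A). The genes were picked from this same contrast, so neither count supports anything about them. At 50 days only the YSL1-like gene was listed, with 1 isoform in A, where 60.8% of all listed transcripts lay. It was not called, against 4.64% of the transcripts listed at that age.

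**Figure D1:**
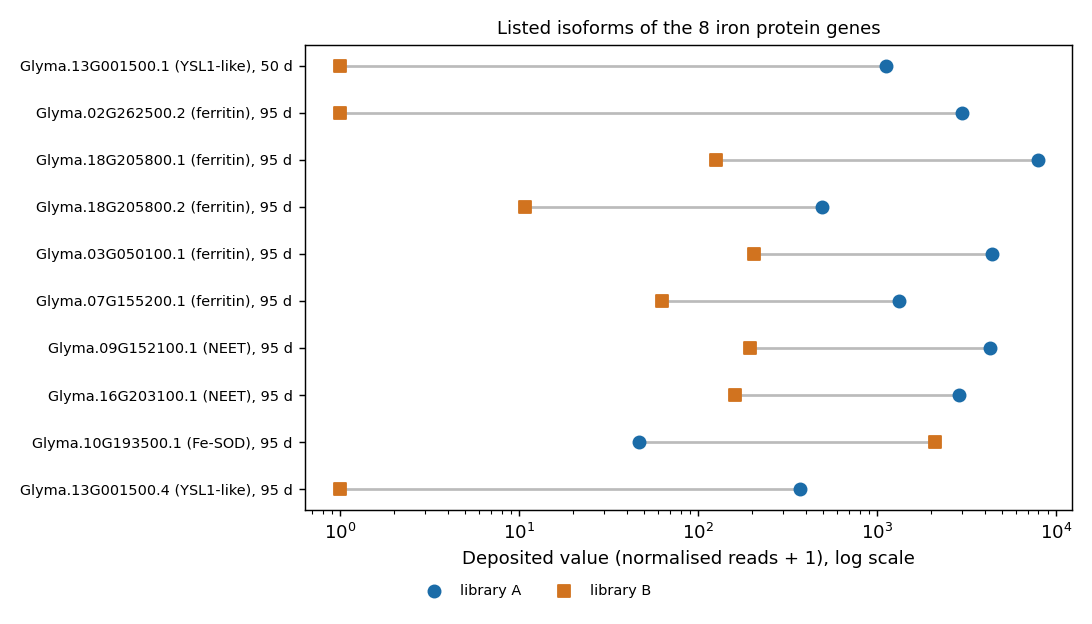
Deposited value (normalised reads plus 1, log axis) of every listed isoform of the 8 genes in library A (circles) and library B (squares), with the age in days after each name. The circle lies right of the square in each row except the iron superoxide dismutase, and squares at 1 mark isoforms with no read in B.

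Ferritin, Glyma.02G262500.2, was the called isoform. Library A held 2993 normalised reads of it and library B no read, which makes it at least 912-fold higher in A, with an adjusted p of 0.0349 in the authors' deposited table. Its symbol is FRI4_SOYBN and its Arabidopsis match is the FER4 ferritin gene, AT2G40300. By the size of its log2 ratio, -11.55, it stood at place 28 of the 2471 transcripts listed at 95 days. The isoform name ends in 2, and no other isoform of this gene was listed, so a value for the whole gene is not known.

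The other ferritin isoforms match FER1 of Arabidopsis, AT5G01600, a ferritin gene induced by excess iron in leaves of that plant. Ferritin-1, Glyma.18G205800.1, stood at 7911 normalised reads in A against 125.8 in B, 62.9-fold higher in A (52.3 to 76.3). Its second listed isoform, Glyma.18G205800.2, stood at 496 against 9.85, 50.3-fold (26.3 to 111). The intervals of the 2 isoforms overlapped. The second isoform made up 5.90% (5.35 to 6.48, exact binomial) of the reads of this pair in A and 7.26% (3.37 to 13.3) in B, so a difference in this division was not detectable at this depth. Summed, the 2 isoforms reached 8407 normalised reads in A against 135.7 in B, 61.97-fold (51.9 to 74.6).

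For ferritin-2, Glyma.03G050100.1, there were 4401 normalised reads in A against 205.7 in B, 21.4-fold higher in A (18.5 to 24.9). A further ferritin, Glyma.07G155200.1, whose symbol is that of an apple ferritin (FRI_MALBX), reached 1328 against 62.4, 21.3-fold (16.3 to 28.3). The intervals of these 2 overlapped each other and lay below that of ferritin-1 isoform 1. Over the 5 listed ferritin isoforms the sums were 17129 normalised reads in A against 403.7 in B, 42.4-fold (38.3 to 47.2). Their median log2 ratio was -5.52. Isoforms that were not listed are missing from these sums, and the single isoforms ran from 21.3-fold to at least 912-fold. The summed fold is thus no estimate for the ferritin family, and its interval covers counting error only. The adjusted p of the 4 FER1-matched isoforms ran from 0.396 for Glyma.18G205800.1 to 0.966 for Glyma.18G205800.2 in the authors' deposited table, so none was called. Ferritin genes are close copies of each other, as are the NEET genes, and how the authors' counting divided reads between copies is not known here.

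Both NEET genes match the single Arabidopsis NEET gene, AT5G51720. For Glyma.09G152100.1 library A held 4261 normalised reads against 194.7 in B, 21.9-fold higher in A (18.8 to 25.6). For Glyma.16G203100.1, described as a CDGSH iron-sulphur domain protein, the values were 2867 in A and 159.7 in B, 17.95-fold (15.2 to 21.4). The intervals of the pair overlapped each other and those of ferritin-2 and Glyma.07G155200.1. With adjusted p-values of 0.827 and 0.966 in the authors' deposited table, neither was called. Their log2 ratios, -4.44 and -4.16, were near the small end of the transcripts listed at that age, at places 2326 and 2377 of 2471.

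**Figure D2:**
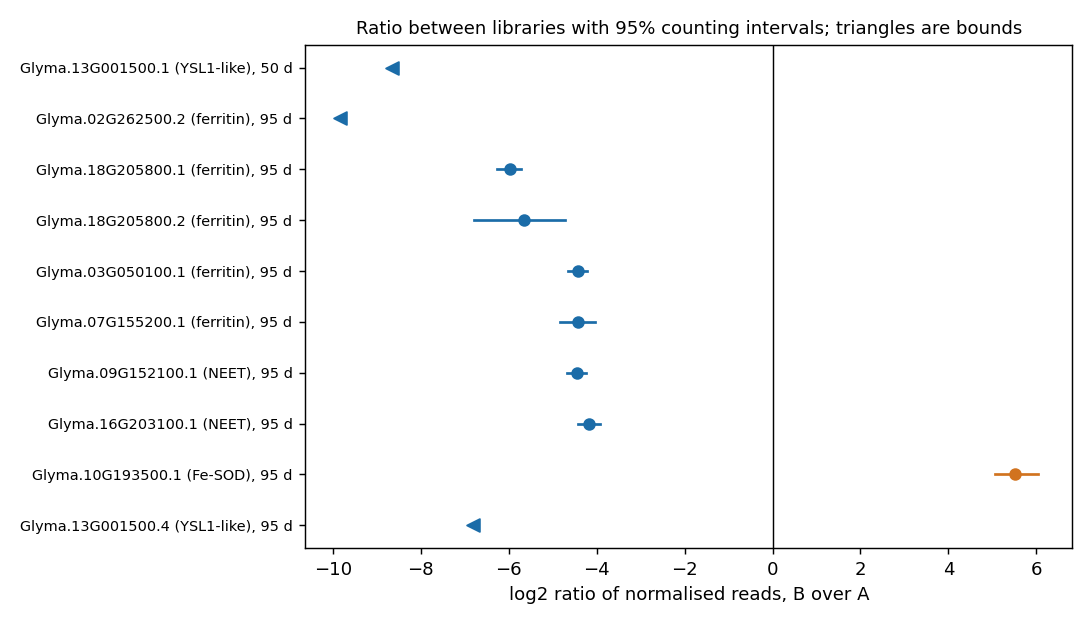
Log2 ratio of normalised reads of B over A for each listed isoform, with 95% counting intervals as lines, and bounds against 3 reads as triangles pointing away from 0. Ferritin-2, Glyma.07G155200.1 and the NEET pair lie together between 17.95-fold and 21.9-fold higher in A, ferritin-1 lies farther left, and the iron superoxide dismutase lies right of 0.

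The iron superoxide dismutase, Glyma.10G193500.1, was the member with more reads in B. Library B held 2109 normalised reads of it against 46.1 in A, 45.8-fold higher in B (33.1 to 65.2), with an adjusted p of 0.809 in the authors' deposited table, and was not called. Its Arabidopsis match, AT5G51100, is FSD2, one of the chloroplast iron superoxide dismutases. Another superoxide dismutase, Glyma.03G242900.1, was found by its symbol for the copper and zinc form (SODC_SOYBN) and chosen after its values were seen. Library A held 3826 normalised reads of it against 152.1 in B, 25.2-fold higher in A (21.2 to 30.0), and was not called. The 2 superoxide dismutases listed at 95 days thus lay on opposite sides, and none was listed at 50 days.

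The YSL1-like gene Glyma.13G001500 was the only one of the 8 listed at both ages, each time as a different isoform. At 50 days Glyma.13G001500.1 was seen with 1125 normalised reads in A but without a read in B, at least 399-fold higher in A, with an adjusted p of 0.101 in the authors' deposited table. At 95 days Glyma.13G001500.4 was seen with 369 in A, again without a read in B, at least 112-fold higher, with an adjusted p of 0.229. Neither was called. Having no read in 1 of the libraries was common among listed transcripts, applying to 70.5% of them at 50 days and 75.3% at 95 days. No isoform of the 8 genes was listed at both ages, so no isoform can be set side by side across ages.

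**Figure D3:**
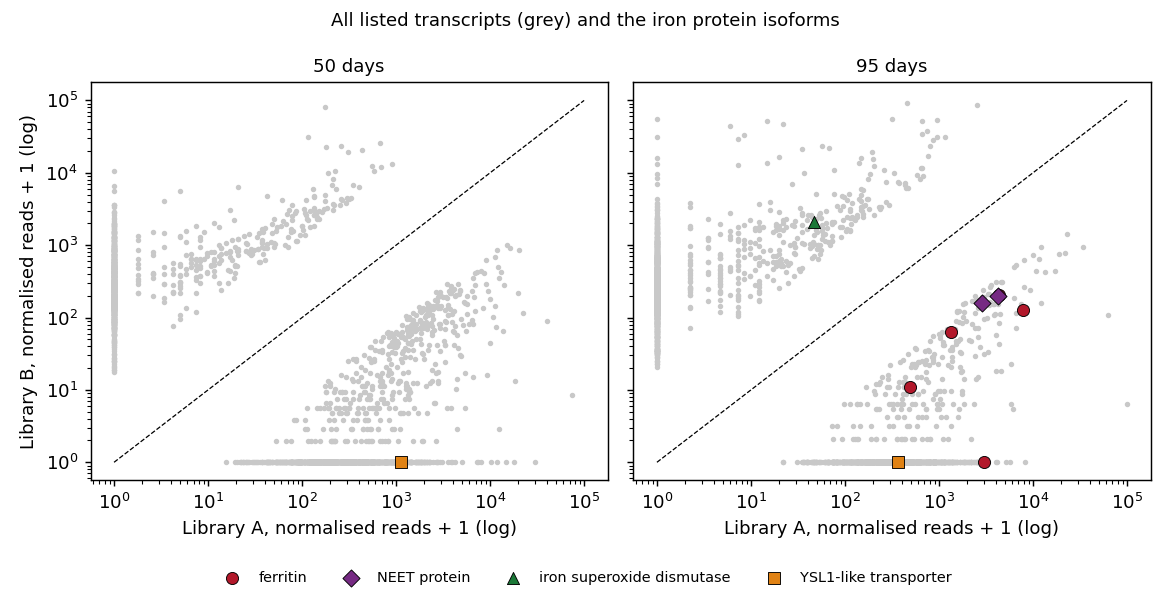
Deposited values of all listed transcripts (grey) in library A (horizontal) and library B (vertical) at 50 and 95 days, both axes logarithmic, with the 8 genes' isoforms marked by role. The empty band along the dashed line of equal values holds transcripts that were not listed. Ferritins and NEET proteins lie below the line at 95 days, and the marker of ferritin-2 is hidden under that of the NEET gene Glyma.09G152100.1, whose values are close to it.

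Other genes of iron storage and transport were taken from lists of words in the symbols and descriptions. Among all listed transcripts, 60.8% lay in A and 4.64% were called at 50 days, and 46.7% and 1.5% at 95 days. Counts in the lists below are to be read beside these shares. The ferritin list added Glyma.11G232600.1, ferritin-3, at 50 days, with 1443 normalised reads in A against 68.5 in B, 21.1-fold higher in A (16.7 to 27.0), and an adjusted p of 0.946 in the authors' deposited table. Over both ages 6 ferritin isoforms of 5 genes were listed, each with more reads in library A of its own age. No source says that A is the same type at both ages, and the 5 isoforms at 95 days are of genes picked from this contrast. The count therefore shows no common direction of ferritin between the types. Ferritin-3 was not listed at 95 days, and none of the 4 member ferritins at 50 days. No NEET transcript was listed at 50 days.

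Of 4 listed YSL transcripts at 50 days, each of another gene, all 4 lay in A, where 60.8% of all listed transcripts lay. Of 4 at 95 days, 3 lay in A, where 46.7% of all listed lay, and 1 in B. None was called at either age, against 4.64% of all listed transcripts at 50 days and 1.5% at 95 days. Glyma.20G217400.3, YSL1-like, reached 1840 normalised reads in A against 73.2 in B at 50 days, 25.1-fold higher in A (20.0 to 31.9). At 95 days another isoform of it, Glyma.20G217400.1, reached 1543 in A without a read in B, at least 470-fold higher, with an adjusted p of 0.0507 in the authors' deposited table. Glyma.10G172900.2, also YSL1-like and named after its values were seen, was in A at both ages, with 555 against 10.3 at 50 days and 195.5 against none at 95 days. The YSL3-like Glyma.06G133000.2 lay in A at 50 days, with 293.8 against no read, and in B at 95 days, with 33.9 against no read.

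The list of iron uptake, transport and regulation, which contains the YSL genes, held 6 transcripts at 50 days, all 6 in A and none called, with a median log2 ratio of -6.91 against -5.29 over all listed transcripts. At 95 days it held 9, with 4 in A and 5 in B and a median of 5.13 against 4.52. No listed ratio lay near 0, so the sign of these medians only restates which side held more transcripts. Its called member was Glyma.03G130600.1, ORG3-like, a bHLH factor of the family that in Arabidopsis switches on iron uptake under iron shortage. Library B held 3016 normalised reads of it and library A no read, at least 807-fold higher in B, with an adjusted p of 0.0363 in the authors' deposited table. For the ORG2-like Glyma.03G130400.1, of the same family, these were 1132 and no read, and it was not called. Also in B at 95 days were a ferric reduction oxidase 2-like transcript, Glyma.18G235900.1, with 570 against none, and a nicotianamine synthase-like one, Glyma.19G228400.1, with 53.6 against none, neither of them called. On the A side stood the 3 YSL1-like transcripts and a vacuolar iron transporter homologue, Glyma.16G168200.1, with 75.97 against none. Outside the words of the list, and chosen after their values were seen, the NRAMP metal transporter Glyma.05G101700.1 reached 51295 in B against 666 in A, 76.98-fold higher in B (70.7 to 83.99). The ubiquitin ligase Glyma.09G115100.3, whose symbol is BTS_ARATH (BRUTUS, a brake on the iron shortage response in Arabidopsis), was found with 15942 in B without a read in A and was called, with an adjusted p of 0.0271 in the authors' deposited table. The NRAMP transcript was not called.

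**Figure D4:**
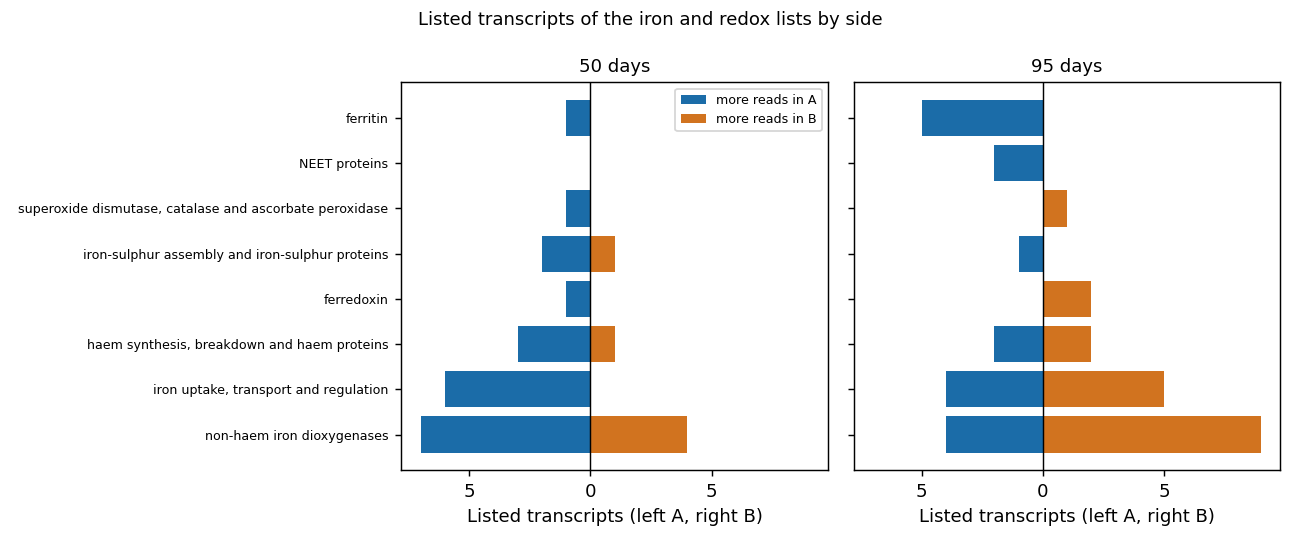
Number of listed transcripts with more reads in A (left of 0) and in B (right of 0) for each word list of iron and redox genes at 50 and 95 days. Ferritin and NEET bars point to A, while iron uptake, transport and regulation is all A at 50 days and 4 against 5 at 95 days.

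The iron-sulphur list held 3 transcripts at 50 days and, at 95 days, only the NEET-like Glyma.16G203100.1. At 50 days 2 of the 3 were isoforms of 1 gene on opposite sides, a chloroplast cysteine desulphurase, which supplies sulphur for iron-sulphur clusters. Glyma.15G127400.3 was found with 3572 normalised reads in A but without a read in B, at least 1268-fold higher in A, and was called, with an adjusted p of 0.0184 in the authors' deposited table. Glyma.15G127400.1 stood at 2972 in B against 137.3 in A, 21.7-fold higher in B (18.6 to 25.4), and was not called. The remaining one, Glyma.13G289600.1, a DnaJ protein with a 4-iron, 4-sulphur domain, stood at 2101 in A against 84.5 in B and was not called.

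The ferredoxin list held ferredoxin-using enzymes and no ferredoxin. Ferredoxin-dependent glutamate synthase, Glyma.19G130800.3, an iron-sulphur enzyme of nitrogen assimilation, stood at 12301 normalised reads in A against 1.88 in B at 50 days, 6550-fold higher in A (1813 to 54090). It was called there, with an adjusted p of 0.0296 in the authors' deposited table. At 95 days the same transcript stood at 1632 in B against 48.6 in A, 33.6-fold higher in B (24.5 to 47.4), and was not called. Nitrite reductase, Glyma.07G212800.1, was found with 83.1 in B without a read in A at 95 days, and was not called.

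Among enzymes that remove reactive oxygen, the list held catalase Glyma.06G017900.2 at 50 days, with 6851 normalised reads in A against 278.9 in B, 24.6-fold higher in A (21.9 to 27.7), not called, and at 95 days the iron superoxide dismutase alone. The haem list, with none called, held 3 transcripts in A against 1 in B at 50 days and 2 against 2 at 95 days. Nonsymbiotic haemoglobin, Glyma.11G121800.1, lay in B at both ages, with 216.9 against 4.01 at 50 days and 445 against no read at 95 days. Cytochrome c oxidase subunit 5b, Glyma.07G032800.1, lay in A at both, with 654 and 886 against none. It entered the list by the words cytochrome c in its description, which do not show that this subunit holds haem. The list of non-haem iron dioxygenases, whose words also took in a subunit of 2-oxoglutarate dehydrogenase, held 7 in A against 4 in B at 50 days and 4 against 9 at 95 days. That subunit, Glyma.14G022100.3, which is no dioxygenase, was its called member, with 1169 against no read at 50 days.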

How the data were processed

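Per the labels' protocols, leaf RNA was read on an Illumina NovaSeq instrument. Trimmomatic 0.36 and DESeq 1.36.0 are named in the submitters' processing notes. The sources used here give no aligner, counter, build or annotation. Columns A and B hold a deposited signal per isoform. In all 4 columns 100% of values minus 1 were whole multiples of 1 step, within 0.01 of a whole number, so each was taken as whole reads divided by a size factor, plus 1. Whether these are reads counted directly or rounded estimates is not known. Implied size factors were 1.25 (A) and 1.06 (B) at 50 days and 0.803 and 0.914 at 95 days. The deposited log2 ratio is that of B over A, the added 1 included. Each p-value, adjusted or not, was deposited by the authors and compares 2 libraries, not the types. A count test was not run, since there is no replicate to estimate spread from. At 50 days 1 repeated row was dropped.

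Members and lists were chosen with earlier results of these data known. Every listed isoform of the 8 genes is named. From the lists, up to 2 transcripts per side, list and age by mean value, and called ones, are named by rule (not all are printed); the vacuolar iron transporter homologue, the YSL genes other than Glyma.13G001500 and Glyma.20G217400, the ferric reduction oxidase and the nicotianamine synthase were chosen after their values were seen. Recovery of reads and interval coverage were tested on simulated data. The simulated reads varied by counting error only, as the intervals assume. Such data cannot show how the intervals fare with spread between plants, rounded estimates or reads divided between gene copies. The RefSeq gene table held 0 Glyma names, so no coordinates or sequences are given. Values were computed in Python 3.11.15 (scipy 1.17.1, numpy 2.4.6, pandas 2.3.3) and plotted with matplotlib 3.10.9.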

Additional observations from a re-analysis of the deposited data

Results flagged for a closer look

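Of 5 transcripts of the iron and redox lists (dioxygenases left out) that were listed at both ages, 2 had more reads in A at 50 days and more in B at 95 days. The dioxygenase list had 7 such transcripts and 0 of them changed sides, which makes 2 of 12 over the iron and redox word lists. The tissue words and the gene ontology selection lie outside this count. They hold further transcripts that changed sides, among them Glyma.19G261400.1 and Glyma.14G150600.1. Ferredoxin-dependent glutamate synthase, Glyma.19G130800.3, had a log2 ratio of B over A of -12.06 at 50 days and 5.04 at 95 days. For the YSL3-like Glyma.06G133000.2 the log2 ratios were -8.20 and 5.13. The difference between ages was not tested, there being 1 library per type and age, and no source says that A is the same type at both. Over all 788 transcripts listed at both ages, 252 changed sides, 177 of them from A at 50 days to B at 95 days.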

How the results depend on the processing

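With an unadjusted p under 0.01 in place of the adjusted one, the count of called isoforms of the 8 genes went from 0 to 1 at 50 days and from 1 to 3 at 95 days. At 95 days it was 0 with an adjusted p under 0.01, and 0 when transcripts with no read in 1 library were left out, since the called ferritin has none in B. The other thresholds, filters and 1 isoform per gene left both counts within 1.5 times. For no minimum fold and for an absolute log2 ratio of at least 3 this was fixed in advance. No listed absolute log2 ratio was below 3.57. The number in A, 1 at 50 days and 8 at 95 days, stayed within 1.5 times under the alternatives that gave a value. Removing the size factors could not change a side. Every listed absolute log2 ratio was at least 3.57, and these isoforms moved by at most 0.32. The filters only remove isoforms, and centring at 95 days moves every ratio toward A. At 50 days leaving out transcripts with no read in 1 library gave none, since the only isoform listed there has no read in B. No log2 ratio of the 10 isoforms changed sign, which a change of pseudocount could not have caused. A pseudocount of 10 moved 1 of them, Glyma.18G205800.2, beyond its counting interval. The same pseudocount moved 3 with no read in B past the exact binomial limit of their reads. Centring on the median of all listed transcripts (-5.29 at 50 days, 4.52 at 95 days) moved 8, the iron superoxide dismutase to 0.96. With no listed ratio near 0, that median reflects which library held more of the listed transcripts. Centring on it is therefore no normalisation, and 0.96 is no estimate of the dismutase difference. Without the size factors, log2 ratios move by -0.23 at 50 days and 0.19 at 95 days where the added 1 does not weigh; the 10 isoforms moved by 0.18 to 0.32 in size, the most being those with no read in B, and none beyond its counting interval or limit. No paired analysis was possible because each type has 1 library per age. The tables show only transcripts with large ratios, so a smaller difference in these genes could not be seen.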

Other observations

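Listed transcripts with an iron or superoxide term in the deposited gene ontology columns were selected after seeing the data. At 50 days they numbered 33, 24 in A and 9 in B, where 60.8% of all listed transcripts lay in A. At 95 days they numbered 36, 17 in A and 19 in B, where 46.7% of all listed lay in A. Without haem and P450 entries there were 13 at 50 days, 7 in A and 6 in B. At 95 days there were 18, of which 8 belong to the genes described above, and the other 10 divided 5 and 5. Among those 10 was phosphomethylpyrimidine synthase (THIC), an iron-sulphur enzyme of thiamine synthesis, with isoforms on both sides. Glyma.18G065700.2 stood at 31020 normalised reads in B against no read in A, and Glyma.18G065700.3 at 17347 in A against 445 in B, 38.96-fold higher in A (35.3 to 43.1). The former was called, with an adjusted p of 0.0176 in the authors' deposited table, and the latter was not. At 50 days Glyma.18G065700.2 lay in A, with 22.5 against no read, and was not called. Fatty acid 2-hydroxylase Glyma.15G132500 also had isoforms on both sides at 95 days. Glyma.15G132500.9 stood at 861 in A against no read, and Glyma.15G132500.4 at 979 in B against no read, neither of them called. Chlorophyllide a oxygenase Glyma.14G150600.1 stood at 4267 in A against no read at 50 days. It was called there, with an adjusted p of 0.0159 in the authors' deposited table. At 95 days it stood at 752 in B against 8.72 in A and was not called. Another isoform, Glyma.14G150600.2, lay in A at 95 days, with 90.9 against 1.09. Of other genes for this enzyme, Glyma.13G078400.1 lay in A at 50 days, with 8407 against 132.4. Glyma.06G113500.1 lay in B at 95 days, with 93.0 against none.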
